A study of Gossypium hirsutum with 3 samples.

Results

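Long genes marked by broad H3K4me3 were examined in the leaf of upland cotton, Gossypium hirsutum, an allotetraploid whose nucleus holds an A and a D subgenome. They are the genes that the study placed in Cluster 1, its k-means group with broad H3K4me3 over the promoter, whose identifiers lie on chromosomes A01 to A09 and whose listed gene length is 4000 bp or more. There were 477 such genes, 24.7% of the 1928 Cluster 1 genes listed on these chromosomes and 2.24% of the 21281 genes measured on them, out of 70478 measured genes in all. They were set against the 973 Cluster 1 genes of 1200 to 4000 bp, called mid-length genes here, and 478 genes were shorter. RNA came from leaves of 20-day-old plants of the cultivar TM-1, all untreated, in 3 replicate libraries of this single condition. The labels do not say whether the libraries came from separate plants, so the spread between them may be partly technical.

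H3K4me3, the trimethyl mark on lysine 4 of histone H3, is laid down by COMPASS-type methyltransferases around the transcription start of active genes, and in some genes it spreads further. A plant gene is long mostly because it holds many exons and introns, and a long primary transcript takes more time to be copied and spliced. The length used here is that of the gene from start to end in the study's list, with introns. Expression was given as FPKM, a fragment count scaled by transcript length and by the mapped fragments of the library, so that levels of genes of different length can be set side by side. The files do not pair the identifiers with gene names, and 0 of the 477 long genes were found in the RefSeq gene table, so neither names nor functions are given. For the same reason no leaf marker gene could be checked.

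Replicate 3 stood apart in the long genes and is named wherever a result rests on it. Among the 388 long genes with a mean FPKM of 1 or more, replicate 3 was the lowest of the 3 libraries in 302 (77.8%). This share was 57.9% in the 783 mid-length genes and 49.9% in all 40861 genes of that level. The libraries differed in other measures too. The 10 highest genes held 9.35% of the FPKM sum in replicate 3, against 8.00% and 8.03% in replicates 1 and 2, and the median log2(FPKM + 1) of all genes with a mean FPKM of 1 or more was 2.89 against 3.01 and 3.03. Among genes below FPKM 0.05 in both of 2 libraries, where values step by single fragments, the commonest ratio was 0.96 for replicate 1 to 2 (74 of 344 genes), 0.99 for replicate 1 to 3 (63 of 354) and 1.04 for replicate 2 to 3 (74 of 345), so depths were read as close. The FPKM files themselves hold no depth. The part of these differences in the results was not tested.

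Most long genes were transcribed in leaf at a moderate level, and few were very high. FPKM was 1 or more in all 3 libraries in 367 of them (76.9%), in some libraries only in 29 and in none in 81 (17.0%). For the mid-length genes these numbers were 751 (77.2%), 55 and 167 (17.2%). By the mean of the libraries, 278 long genes (58.3%) lay between FPKM 1 and 10, 110 (23.1%) at 10 or more and 89 (18.7%) below 1. The same classes held 514 (52.8%), 269 (27.6%) and 190 (19.5%) of the mid-length genes. The long genes were therefore gathered around the middle. Only 8 of them (1.68%) reached a mean FPKM of 50, against 37 mid-length genes (3.80%) and 4.61% of all genes on A01 to A09. At the low end, 8 long genes (1.68%) were listed at 0 in every library, against 29 mid-length genes (2.98%) and 15.5% of all genes on these chromosomes. A value of 0 means that no fragment was assigned, and a longer transcript gives more fragments at the same FPKM. The part of this in the shares at 0 was not tested. Cluster 1 was also drawn only from genes associated with H3K4me3, while all genes of these chromosomes include others. Without replicate 3, the mean FPKM was 1 or more in 390 long and 791 mid-length genes, and 10 or more in 118 (24.7%) and 272 (28.0%).

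The share of long genes at FPKM 1 or more was 82.2%, 82.4% and 77.1% in replicates 1, 2 and 3, or 80.6% ± 2.97 (SD, n = 3 libraries). In the mid-length genes it was 81.3%, 81.5% and 78.4%, or 80.4% ± 1.72 (SD, n = 3). The difference was 0.89 and 0.89 percentage points in replicates 1 and 2 and -1.27 in replicate 3, so it changed direction between libraries, with a mean of 0.17 ± 1.24 (SD, n = 3; exact two-sided sign-flip permutation test over libraries, p = 1). Of the 477 long genes, 22 missed the threshold in replicate 3 alone, 1 in replicate 2 alone and 0 in replicate 1 alone. Out of 973 mid-length genes, about double that number, 29 missed it in replicate 3 alone, 6 in replicate 2 alone and 4 in replicate 1 alone. Median FPKM of the long genes was 4.76, 5.0 and 3.60 in replicates 1 to 3, against 4.57, 4.74 and 4.03 in the mid-length genes. The long genes were thus the higher set in the first pair of libraries and the lower one in replicate 3.

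The sets separated in the upper tail. The 90th percentile of mean FPKM was 15.1 in the long genes and 26.3 in the mid-length genes, while the 10th percentile was the higher one in the long genes, at 0.38 against 0.24. Mean log2(FPKM + 1) of the long genes was 2.45, 2.47 and 2.23 in replicates 1, 2 and 3, and that of the mid-length genes was 2.56, 2.60 and 2.46. The long genes were lower in 3 of 3 libraries, by -0.12, -0.13 and -0.23, with a mean of -0.16 ± 0.06 (SD, n = 3; exact two-sided sign-flip permutation test over libraries, p = 0.25). This is the smallest p that 3 libraries allow, so no such difference could pass a threshold of 0.05. Among genes with a mean FPKM of 1 or more, 388 long and 783 mid-length genes, the difference was -0.19, -0.21 and -0.32, with a mean of -0.24 ± 0.07 (SD, n = 3; exact sign-flip permutation test, p = 0.25). On medians in place of means it was only -0.047. The long genes held 0.42%, 0.43% and 0.35% of the FPKM sum of the libraries.

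**Figure D1:**
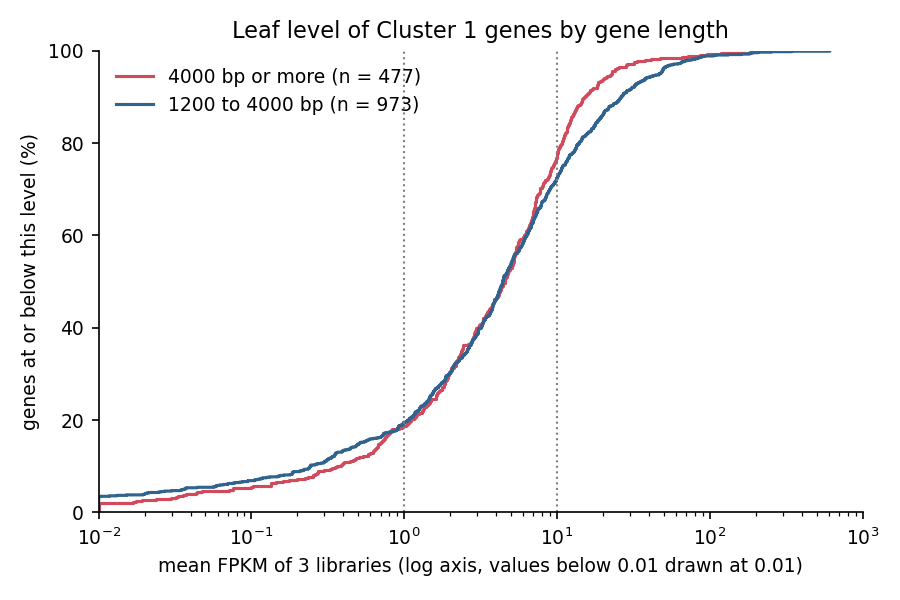
Cumulative share of genes (y axis, percent) by mean FPKM of the 3 libraries (x axis, log scale) for the 477 long and 973 mid-length Cluster 1 genes, with dotted lines at FPKM 1 and 10. The curves run together around the medians of 4.56 and 4.42, and the long genes reach 100% earlier, with a 90th percentile of 15.1 against 26.3.

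The 10 highest long genes held 24.2%, 24.7% and 27.7% of the FPKM of the long genes in replicates 1, 2 and 3. This share was not computed for the mid-length genes. The highest was Gh_A03G1189, a gene of 4657 bp on the minus strand of chromosome A03 (85355014 to 85359671 in the TM-1 assembly that the study mapped to), at FPKM 206, 226 and 180 in replicates 1, 2 and 3, or 204 ± 23.2 (SD, n = 3). It was followed by Gh_A06G1246, 8675 bp on the minus strand of A06 (89813434 to 89822109), at 188, 186 and 180. Gh_A03G1189 was the higher of them within each library, though in replicate 3 by only 179.7 against 179.6, and both stayed above every other long gene. Gh_A09G1768 (4213 bp) stood at 94.1, 105 and 155, with replicate 3 above the others. The fourth was the longest gene of all, Gh_A04G0648, listed with 188706 bp on the plus strand of A04 (44308086 to 44496792), at 93.5, 97.7 and 97.1. Whether its gene model is right at this length could not be checked. Its libraries differed little, with a coefficient of variation of 2.33%.

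The remaining genes of the top 10 lay closer together. Gh_A01G1404 was at FPKM 83.3, 82.9 and 91.4. Gh_A09G1788 was at 74.7, 67.4 and 72.8. Gh_A03G0491 was at 69.3, 70.0 and 58.0. The last of these overlapped with Gh_A09G1788 between libraries, while Gh_A01G1404 was above both in each library. Gh_A06G2006, which the study lists on a scaffold assigned to A06 but not placed in it, was at 57.9, 68.6 and 51.9. Gh_A03G0407 was at 46.2, 46.4 and 48.6. Gh_A05G1541 was at 41.0, 46.3 and 37.3. Of the 10 genes, 3 came from A03, and A02, A07 and A08 gave none. The highest long genes of those chromosomes were Gh_A02G0698 at 28.9 ± 0.716 (SD, n = 3), Gh_A07G2334 at 31.8 ± 3.58 (SD, n = 3) and Gh_A08G1670 at 21.4 ± 0.592 (SD, n = 3).

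**Figure D2:**
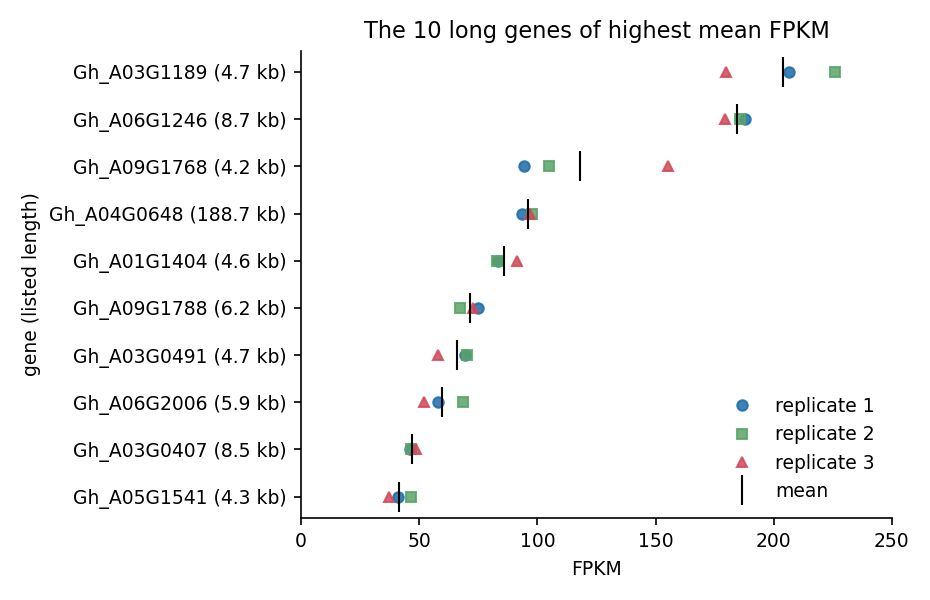
FPKM (x axis, linear from 0) of the 10 long genes of highest mean FPKM, one row per gene with its listed length, with a symbol for each of the 3 libraries and a bar for their mean. Gh_A03G1189 and Gh_A06G1246 lie at 180 to 226 in every library, and Gh_A09G1768 spans 94.1 to 155.

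Great length did not go with one kind of level. Of the 5 longest genes, Gh_A04G0648 was among the highest, as given above, and the next 3 were below FPKM 1 in every library. Gh_A01G0301, listed with 90350 bp, was at FPKM 0.11 and 0.12 in replicates 1 and 2 and listed at 0 in replicate 3. Gh_A07G0940, with 62773 bp, was at 0.021, 0.060 and 0.014, and Gh_A08G0982, with 41181 bp, at 0.40, 0.32 and 0.058. The fifth, Gh_A08G0111, with 38930 bp, was at 11.8, 11.5 and 6.70. Replicate 3 was the lowest library in each of these 4 genes. At the other end of the range, the long genes nearest to 4000 bp were Gh_A04G0103 (4002 bp) at a mean FPKM of 13.4, Gh_A05G1694 (4003 bp) at 1.62 and Gh_A06G1753 (4013 bp) at 1.31. The mid-length genes just under this limit were Gh_A03G0402 (3997 bp) at 15.8, Gh_A08G1708 (3983 bp) at 5.91 and Gh_A02G0190 (3982 bp) at 4.09.

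Within the long genes the level was lower in each longer class up to 20 kb. The 151 genes of 4000 to 5000 bp had a mean log2(FPKM + 1) of 2.73, 2.75 and 2.58 in replicates 1, 2 and 3. The 151 genes of 5000 to 7000 bp had 2.43, 2.44 and 2.21, and the 89 genes of 7000 to 10000 bp had 2.36, 2.38 and 2.09. The 66 genes of 10000 to 20000 bp had 2.0, 2.04 and 1.74, below every shorter class of long genes in each library. Median FPKM over these classes was 6.27, 4.69, 3.75 and 3.11. The share of genes with a mean FPKM of 1 or more was 85.4%, 82.8%, 80.9% and 75.8%, and the share at 10 or more was 31.8%, 21.9%, 18.0% and 7.58%. Over these classes the share of highly expressed genes dropped further than the share of expressed genes. The 20 genes above 20 kb broke this order, with means of 2.30, 2.35 and 2.02. They were split, with 8 genes below FPKM 1 on average and 8 at 10 or more.

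Over the whole of Cluster 1, the mean was highest just below the limit of 4000 bp. The 254 genes of 3000 to 4000 bp had 2.83, 2.89 and 2.68, above the genes of 4000 to 5000 bp in each library, and the 346 genes of 1200 to 2000 bp had 2.49, 2.54 and 2.43. By median FPKM the order was the other way, with 6.14 in the genes of 3000 to 4000 bp and 6.27 in those of 4000 to 5000 bp. Across the 477 long genes, Spearman's rho of length and mean FPKM was -0.15 (-0.14 without replicate 3), and across the 973 mid-length genes it was 0.087. All these points come from the same libraries and genes are not independent replicates, so the values are descriptions.

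**Figure D3:**
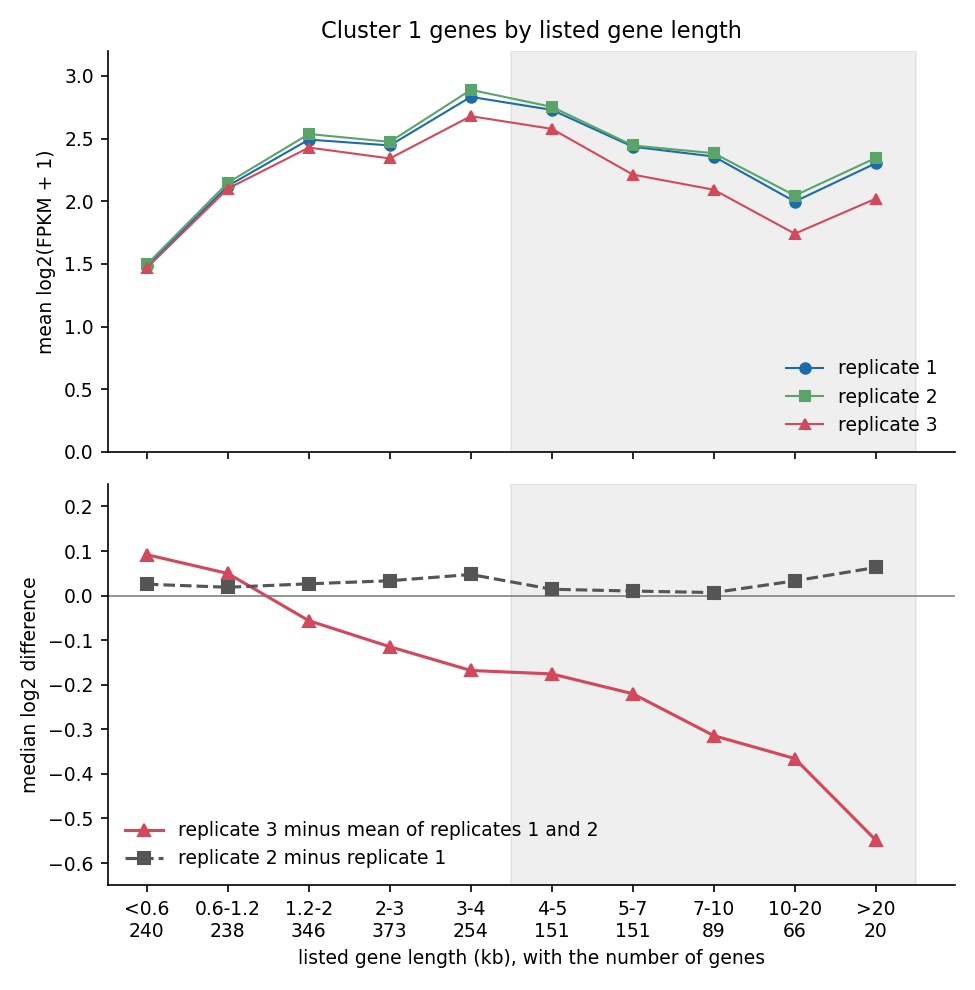
Cluster 1 genes of A01 to A09 in 10 classes of listed length (x axis, kb, with the number of genes), the classes of 4 kb or more shaded. The upper panel gives mean log2(FPKM + 1) in each library and the lower one, over genes with a mean FPKM of 1 or more, the median log2 difference of replicate 3 to the mean of replicates 1 and 2 (triangles) and of replicate 2 to 1 (squares). The triangles run from 0.092 below 0.6 kb to -0.55 above 20 kb, while the squares stay between 0.0068 and 0.063.

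Replicate 3 lay lower in longer genes. In long genes with a mean FPKM of 1 or more, replicate 3 differed from the mean of replicates 1 and 2 by a median of -0.24 on the log2(FPKM + 1) scale, with quartiles of -0.42 and -0.083. The median difference was -0.12 in the mid-length genes, 0.059 in the shorter genes and -0.066 over all genes of that level. Replicate 2 differed from replicate 1 by a median of only 0.014 in the long genes. Over the long classes from 4000 bp to 20 kb, the median difference of replicate 3 was -0.18, -0.22, -0.31 and -0.37, and it was -0.55 in the 12 such genes above 20 kb. The 224 such genes of 3000 to 4000 bp, just outside the set, were close to those of 4000 to 5000 bp, at -0.17 against -0.18. Replicate 3 was the lowest library in 71.4% of the former and 72.9% of the latter. Across the 1432 Cluster 1 genes of this level, Spearman's rho of length and this difference was -0.32, against 0.0099 for length and the difference of replicate 2 to 1.

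The same gap appeared at each level of expression. In genes with a mean FPKM of 1 to 3, the median difference of replicate 3 was -0.30 in 102 long and -0.20 in 185 mid-length genes, and -0.13 over all genes. Between 3 and 10 it was -0.27 in 176 long and -0.14 in 329 mid-length genes, and -0.13 over all genes. At 10 or more it was -0.16 in 110 long and -0.035 in 269 mid-length genes, and 0.021 over all genes. These are differences of 1 library, with no replicate of their own, and they cannot be tested over libraries.

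The SD of log2(FPKM + 1) over the 3 libraries had a median of 0.17 in the long genes and 0.13 in the mid-length genes, and the coefficient of variation of FPKM had medians of 14.2% and 11.5%. Without replicate 3 this gap of 0.030 turned to -0.0062, and the absolute difference of replicates 1 and 2 had a median of 0.098 in the long and 0.11 in the mid-length genes. Large differences were rare, and the highest library was at least 2-fold above the lowest in 5.41% of the long genes, against 6.37% of all genes of that level. The long genes with the largest spread were all low in replicate 3. Gh_A05G3204 (12130 bp) was at FPKM 1.73, 1.99 and 0.25, Gh_A06G1038 (7404 bp) at 12.2, 10.4 and 4.58, and Gh_A09G2384 (7421 bp) at 5.23, 6.85 and 2.36. The libraries kept the order of the genes. Spearman's rho across the long genes was 0.993 for replicates 1 and 2, 0.983 for 1 and 3 and 0.979 for 2 and 3.

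Long genes lay on all 9 chromosomes. A05 held the most with 105, then A07 with 65 and A09 with 63, and A04 the fewest with 22. They made up 29.0% of the listed Cluster 1 genes on A07, 27.9% on A05 and 16.2% on A04. Mean log2(FPKM + 1) of the long genes ran from 2.19 ± 0.13 (SD, n = 3 libraries) on A04 and 2.24 ± 0.14 (SD, n = 3) on A02 to 2.50 ± 0.14 (SD, n = 3) on A05 and 2.54 ± 0.13 (SD, n = 3) on A09. Within a library, neighbours in this order differed by at most 0.15, and A07, A06, A08 and A01 changed places between libraries. The long genes were lower than the mid-length genes of the same chromosome in every library on 7 of the 9 chromosomes. The difference was widest on A01, at -0.42, -0.43 and -0.61 in replicates 1, 2 and 3, and on A04, at -0.43, -0.47 and -0.54. On A09 the long genes were the higher set in 3 of 3 libraries, by 0.094, 0.097 and 0.012. On A05 they were higher by 0.093 and 0.074 in replicates 1 and 2 and lower in replicate 3, at -0.045. By median FPKM the long genes were higher on 4 chromosomes, with 6.23 against 4.53 on A09 and 5.05 against 4.14 on A05, and lower on A04 with 2.85 against 5.23. The share with a mean FPKM of 1 or more was between 74.2% on A02 and 87.6% on A05. Every library measures the same genes, so the SD given for a chromosome does not show the spread between its genes. The sets were small, down to the 22 long genes of A04, and differences between chromosomes were not tested.

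**Figure D4:**
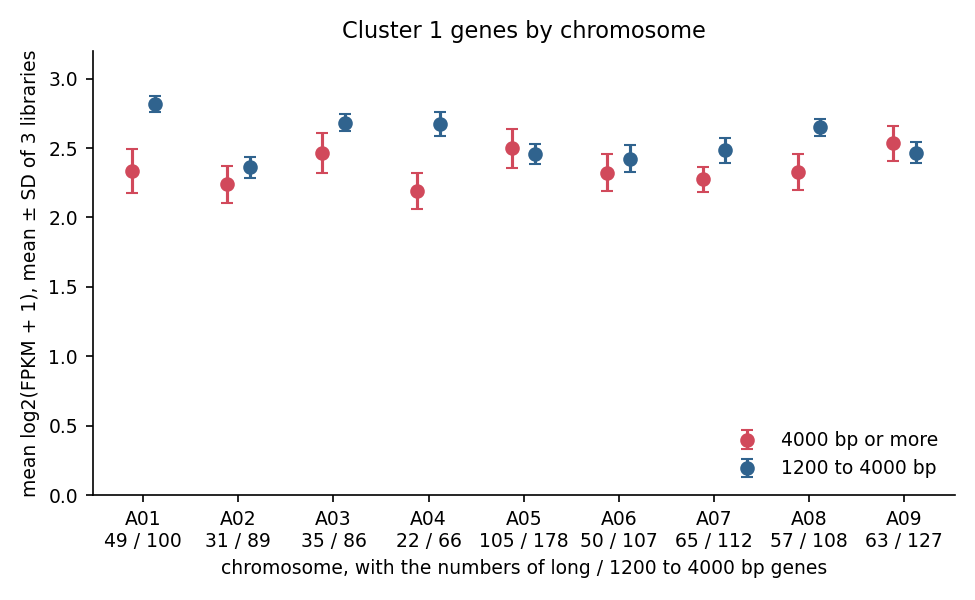
Mean log2(FPKM + 1) of the long and the mid-length Cluster 1 genes on each of A01 to A09 (points, mean of 3 libraries; bars, SD over the libraries; numbers of genes under the axis). The long genes lie below the mid-length genes on 7 chromosomes, by -0.49 on A01 and -0.48 on A04, and above them on A05 and A09. The bars do not show the spread between genes.

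Place on the chromosome was read from the order of the identifiers, which was that of the listed start positions of the placed Cluster 1 genes. Of the 440 long genes on assembled chromosomes, 215 (48.9%) lay toward the ends, in the first or last 25% of this order, and 225 (51.1%) between them. Their mean log2(FPKM + 1) was 2.31 ± 0.13 (SD, n = 3) and 2.42 ± 0.14 (SD, n = 3). Within each library the genes toward the ends were lower, by -0.12, -0.11 and -0.099. In the mid-length genes these means were 2.62 ± 0.08 (SD, n = 3) toward the ends and 2.50 ± 0.07 (SD, n = 3) between, with the ends higher by 0.12, 0.12 and 0.11. The same genes enter every library, so such agreement between libraries does not measure the spread between genes, and 3 libraries allow no p below 0.25 in the exact sign-flip test. The other 37 long genes lay on scaffolds assigned to a chromosome but not placed in it. They had a mean of 2.60 ± 0.13 (SD, n = 3), a median FPKM of 6.19, and 83.8% of them had a mean FPKM of 1 or more. By strand, 233 long genes were on the plus and 244 on the minus strand, with median FPKM of 4.44 and 4.61. By the mean, the plus strand was the higher one in 3 of 3 libraries, by 0.21, 0.21 and 0.23 on the log2(FPKM + 1) scale, and its share of expressed genes (mean FPKM at or above 1) was 84.98% against 77.9%.

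Because cotton is an allotetraploid, most genes have a homeolog, the counterpart in the other subgenome that came from the other parent species. A D homeolog was taken from the study's lists for 65 long genes, 41 of A01 and 24 of A02. The homeologs of the other 412 were not analysed here. The lists were its full list of pairs and a list with leaf fold changes, which it titles as differentially expressed pairs. Most pairs had both copies expressed. Both copies had a mean FPKM of 1 or more in 48 pairs, only the long A gene in 6, only the D gene in 4 and neither in 7. Mean log2(FPKM + 1) over the 65 pairs was 2.46 ± 0.16 (SD, n = 3 libraries) for the long genes and 2.35 ± 0.13 (SD, n = 3) for the D homeologs. The D homeologs were lower in 3 of 3 libraries, by -0.13, -0.13 and -0.077, and their median FPKM was 3.72 against 5.56. Pair by pair, the median difference was -0.045 on the log2(FPKM + 1) scale in the 58 pairs tested below. The long genes were chosen by their H3K4me3 cluster and the D homeologs were not, so the sets were not picked alike. The part of this choice in the gap and in the calls below was not tested. Reads that fit both copies could have been given to either by the mapping, and FPKM does not show how many did.

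In limma over 1999 homeologous pairs with a mean FPKM of 1 or more in either copy, 58 pairs of long genes were tested. Of these, 43 were in the part of the full list used here. A pair was called biased where the adjusted p was under 0.05 and the copies differed by 1 or more on the log2 scale. By this rule 4 pairs (6.90%) were A-biased and 2 (3.45%) D-biased, against a background of 8.65% and 10.6% of all pairs tested. In either direction these were 6 pairs (10.3%), against 19.2%. By adjusted p alone 21 pairs passed, 14 toward A and 7 toward D, where 56.4% of all pairs passed. With the library as a replicate block, 37 pairs passed by adjusted p alone, 22 toward A and 15 toward D, against 70.8% of all pairs, while the count with the fold threshold stayed at 6. Every A value was above every D value in 16 pairs (27.6%), and the reverse held in 11 (19.0%), against 30.1% and 32.3% of all pairs. The absolute log2 fold change had a median of 0.31 in the 58 pairs and 0.44 in all pairs. In sign, the median was -0.045 with quartiles of -0.39 and 0.23, against 0.031 in all pairs.

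By log2(FPKM + 1), the long gene of largest A bias was Gh_A01G2025. It was at FPKM 7.11, 7.47 and 6.82 in replicates 1, 2 and 3. Its homeolog Gh_D01G0143 was at 0.945, 0.364 and 1.01, and the log2 ratio of D to A was -2.22 ± 0.16 (SE; limma, adjusted p = 1.39e-05). The copies were far apart in every library. Gh_A02G0276 was at 6.11, 5.22 and 6.01 and Gh_D02G0341 at 1.33, 1.14 and 1.38, with a log2 ratio of -1.57 ± 0.10 (SE; limma, adjusted p = 8.90e-06). The D-biased pairs had long genes near the limit of expression and were not in the part of the full list used here. Gh_A02G0545 was at 0.522, 0.783 and 0.443 and Gh_D02G0608 at 4.28, 2.75 and 2.11, with a log2 ratio of 1.32 ± 0.19 (SE; limma, adjusted p = 6.58e-04). Gh_A02G1348 was at 0.789, 0.536 and 0.598 and Gh_D03G0485 at 2.84, 2.83 and 1.73, with a log2 ratio of 1.06 ± 0.15 (SE; limma, adjusted p = 5.95e-04). Without replicate 2 the last value was 0.94, under the threshold. All 4 pairs were chosen for copies without overlap between libraries, so leaving out a library could not change their direction. Since 1 was added to each FPKM before the logarithm, these ratios are smaller than those of the FPKM themselves, most of all in low genes. The order of the A-biased pairs rests on this scale too. Gh_A01G1093, added after its values were seen, was at 1.49, 2.60 and 1.43. Its homeolog Gh_D01G1117 was listed at 0 in every library, so their FPKM ratio has no finite value. The log2 ratio with 1 added was -1.48 ± 0.16 (SE).

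The difference of replicate 3 was present in both copies. In the 48 pairs with both copies at a mean FPKM of 1 or more, replicate 3 differed from the mean of replicates 1 and 2 by a median of -0.34 in the long genes and -0.26 in their D homeologs. It was the lowest library in 39 and 35 of them. In 102 pairs of mid-length genes the medians were -0.067 and -0.12, and in all 1735 such pairs -0.074 and -0.075. The pair of Gh_A01G2101 and Gh_D01G1284, chosen after its values were seen, shows this side by side. The A copy was at FPKM 14.6, 15.9 and 7.37 and the D copy at 26.4, 28.3 and 14.1. Both were lowest in replicate 3, and D was above A within each library.

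**Figure D5:**
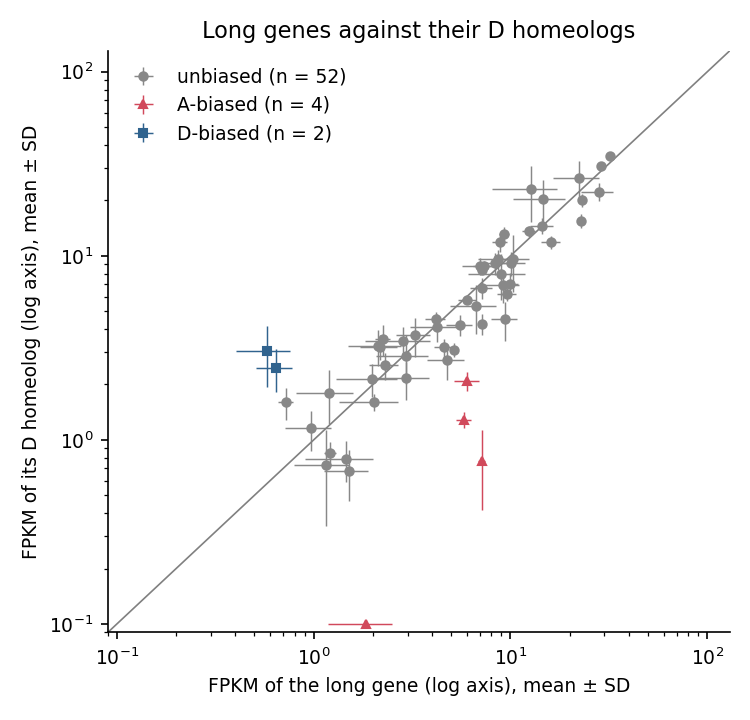
Mean FPKM of 58 long genes (x axis, log scale) against their D homeologs (y axis, log scale), with bars for the SD over 3 libraries, a line of equal level, and one homeolog listed at 0 drawn at 0.1. Most pairs lie near the line, and by adjusted p with the fold threshold 52 were unbiased, 4 A-biased and 2 D-biased.

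Few Cluster 1 genes of either length were among the study's lists of biased TFs and of the blue module. Of the 384 TFs with homeolog bias, 0.54% of all measured genes in number, 0 were long and 6 (0.62%) mid-length genes. These TFs were called by the study on the same libraries. The blue module, a list of 442 genes (0.63% of all) that the study associated with leaf, held 1 long gene (0.21%) and 3 mid-length genes (0.31%). The study built its modules only from genes biased between the subgenomes, so other genes could not enter this list. These counts are too small to set the long genes apart. The long one, Gh_A09G1006 (27698 bp), was at FPKM 10.2, 10.9 and 13.8, or 11.6 ± 1.92 (SD, n = 3), and its highest value was that of replicate 3.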

How the data were processed

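RNA-seq of TM-1 leaf was used in 3 libraries. The labels word the oligo(T) bead step as taking mRNA away but go on to call the product enriched mRNA, and the study's methods also give enrichment, so the values were read as those of mRNA. Reads had been trimmed by the authors (fastp) and aligned to the TM-1 assembly (HISAT2), and FPKM per gene of the CottonGen models came from StringTie. Tool versions are not given in the sources used here. The deposited FPKM were analysed unchanged. Count models do not suit this unit, and relative depth was read from low values alone. Cluster 1, gene lengths, coordinates and homeologous pairs were taken from the study's supplementary lists, of which Cluster 1 genes of A01 to A09 and pairs of A01 and part of A02 were used. Members and lists were chosen with earlier results of these data known.

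Sets were compared on log2(FPKM + 1) within each library, with exact sign-flip tests over the 3 libraries. Homeologs were compared by limma 3.58.1 (R 4.3.3), without a replicate block, with Benjamini-Hochberg adjustment over all pairs tested. The fit was also run on simulated pairs with independent A and D deviations, which could not test the pairing by library. Each library gave the A and the D value of a pair, so the library pairs them, and their deviations from the mean correlated with r = 0.22, 0.57 and 0.64 in replicates 1, 2 and 3. Named genes were the 10 highest, the 5 longest, the highest of each chromosome, the 3 of largest spread, those nearest 4000 bp, 2 biased pairs in each direction and those in the study's lists. Other work used Python 3.11.15, numpy 2.4.6, pandas 2.3.3 and matplotlib 3.10.9. Alternatives covered the pseudocount, filters, length limits, scaffolds, centring, the block and each library. The ChIP-seq data were not analysed here.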

Additional observations from a re-analysis of the deposited data

How the results depend on the processing

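The difference in mean log2(FPKM + 1) of the long to the mid-length genes changed with the length limit and with the use of medians. It was -0.30 for genes of at least 5000 bp and -0.0055 on medians, and between -0.18 and -0.12 when each library was left out. Among expressed genes these values were -0.36, -0.047, and -0.26 to -0.19. The difference in the share at FPKM 1 or more was -1.47 percentage points for genes of at least 5000 bp, -1.99 against genes of 2000 to 4000 bp, 2.18 at a threshold of 0.5 and 1.71 at 0.1, and between -0.19 and 0.89 with a library left out. The gap in replicate spread ran from -0.0062 to 0.065 with a library left out and was negative without replicate 3. The long genes were higher on 1 chromosome with genes of at least 5000 bp, on 1 without unplaced scaffolds and on 4 by medians, and on 2 with any library left out. Biased pairs numbered 3 of 34 tested at a minimum mean FPKM of 5, against 19.6% of all pairs. With the full list of homeologs alone there were 3 of 43 tested, against 19.4% of all pairs. By adjusted p alone there were 21 of 58 (56.4% of all pairs). With any library left out there were 6, against 19.4% to 19.9% of all pairs. Without replicate 2, 5 of the 6 were A-biased and 1 D-biased. By adjusted p alone with the replicate block there were 37. A replicate block, a trend or a pseudocount of 0.42 also gave 6, and the block changed no call of a named pair. Over all 1999 pairs a pseudocount of 0.42 gave 24.0% biased pairs in place of 19.2%. Counts without replicate 3, values within classes of level and the block with adjusted p alone were added after seeing the data.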
